A study of Mus musculus with 16 samples.

Results

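The tRNAs for serine, threonine, asparagine and glutamine, the amino acids with uncharged polar side chains, were examined in RNA of plasma extracellular vesicles (pEVs). All listed ncRNAs whose names give tRNA and one of these amino acids were taken, 69 of the 15159 ncRNAs and of the 433 tRNAs, and they were grouped by anticodon. There were 23 serine, 15 threonine, 12 asparagine and 19 glutamine tRNAs with 11 anticodons in all. The comparison asked which ncRNAs carried by pEVs differ between a tauopathy mouse model and normal mice.

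PS19 mice were heterozygous (PS19+/-) for a human MAPT P301S tau transgene driven by the mouse prion protein (Prnp) promoter, on a mixed C57BL/6 and C3H background, and the wild-type (WT) mice were their littermates without it. Both groups held 8 mice, males and females in equal number, aged about 9.6 months, but the sex of each mouse is not in the labels and was not modelled. A small RNA library was made for each mouse from pEVs precipitated from 200 µL of plasma, so that RNA of all circulating vesicles, and of whatever else precipitates with them, was read together. Fewer vesicles of a given origin and less RNA per vesicle cannot be told apart in such material. The transgene itself could not be checked, because small RNA libraries hold no measure of its mRNA.

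A tRNA brings its amino acid to the ribosome by pairing its anticodon with a codon, and in plasma tRNAs occur largely as fragments cut from the mature molecule. Serine tRNAs belong to the class II tRNAs, which have a long variable arm that the seryl-tRNA synthetase recognises. Several members are modified at the first anticodon base, an adenosine edited to inosine in the AGA tRNA of serine and the AGT tRNA of threonine, a guanosine replaced by queuosine in the GTT tRNA of asparagine, and a thiolated uridine in the TTG tRNA of glutamine. Modified bases can stop reverse transcription, so read numbers reflect both the amount of a fragment and how well it is copied. In a name such as tRNA-Gln-TTG-2-1, the anticodon follows the amino acid, the next number marks the isodecoder (a tRNA body that shares the anticodon but differs elsewhere), and the last number marks the gene copy. The nucleotide sequences and gene positions of the tRNAs were not used here.

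Reads assigned to ncRNAs numbered from 36220722 to 117583663 per library, and of these tRNAs took a median of 99.1%. WT replicate 2 stood apart with the lowest total, the lowest tRNA share (90.8%) and the highest miRNA share (7.51%), and PS19 replicate 4 with the lowest miRNA share (0.0645%) and the lowest size factor, at which 1 read was worth 3.83 normalized counts. All values below are normalized counts, meaning reads divided by the size factor of the library. The miRNAs of other sources of plasma RNA were read beside them. Of the 6 red blood cell miRNAs, 2 (miR-486a-5p and miR-486b-5p) were lower in PS19 by limma at a raw p under 0.05. The summed normalized count of all 6 ran from 3532 to 88346 in PS19 (median 64557) and from 34078 to 186707 in WT (median 75848). By group means this sum was mostly miR-486a-5p and miR-486b-5p (43609 and 44689 in WT, beside 2795 for miR-451a, the next highest). Their log2 fold changes were alike (-1.41 and -1.42), and among the 6 only that of miR-144-5p was above 0 (0.36). The liver miRNA miR-122-5p was also lower, and none of the 3 platelet and myeloid or the 3 neuron miRNAs passed. Of these 13 miRNAs 10 were read in every library, miR-144-5p being at 0 in 10 libraries, miR-144-3p in 2 and miR-142a-5p in 1. The part of these in the results on tRNAs was not tested.

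The polar tRNAs were a trace of the tRNA pool. Counting each set of identical values a single time, glycine and glutamate tRNAs took a median of 99.7% of the tRNA reads over the 16 libraries, whereas all tRNAs of serine, threonine, asparagine and glutamine together took 0.00114%. This share had a median of 0.00155% in PS19 (0.000628% to 0.00228%) and 0.000982% in WT (0.000656% to 0.0101%), with WT replicate 2 far above the other libraries, and the ranges overlapped. Serine and glutamine accounted for most of it, with median shares of 0.000535% and 0.000532%, and the range of glutamine lay within that of serine. Asparagine (4.06e-05%) and threonine (3.37e-05%) tRNAs were lower by about an order of magnitude, and the difference between these is small beside their spread. A count of 0 allowed a share of up to 3 reads, between 3.11e-06% and 1.08e-05% of the tRNA reads of a library, and the median share of the AGT threonine tRNAs (2.79e-06%) lay below that limit.

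**Figure D1:**
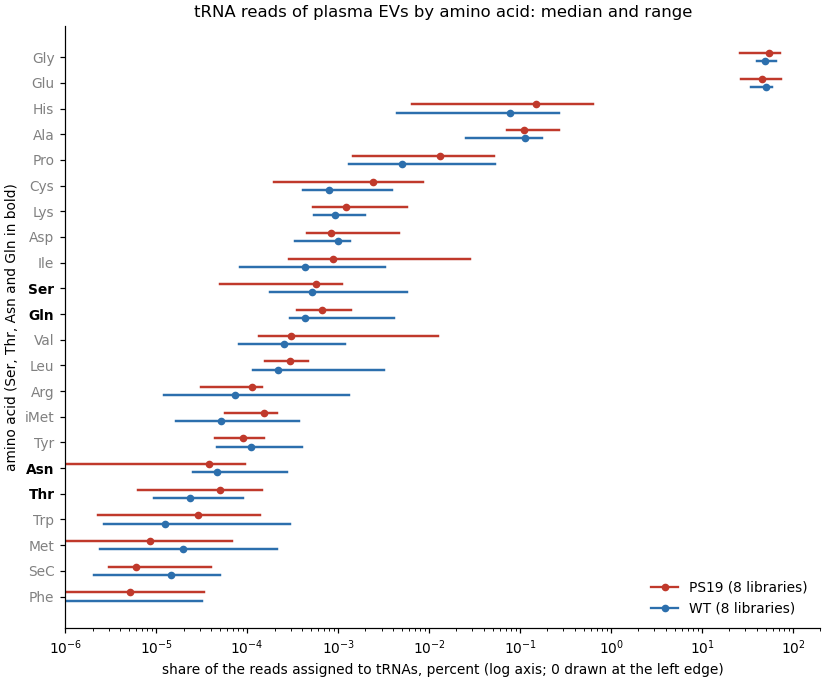
Share of the reads assigned to tRNAs, in percent on a log axis, for each amino acid, with the median as a point and the range over 8 libraries as a line for PS19 and for WT. Glycine and glutamate hold nearly all reads, and serine, glutamine, asparagine and threonine (bold) lie far below, the highest single value being 0.00569% for serine in WT replicate 2.

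Read depth per tRNA set how far each could be compared. Over the 16 libraries together, the median tRNA among the 69 was read 214 times (1 to 1345), compared with 28 for all ncRNAs and 344 for all tRNAs. Glutamine tRNAs were the best covered, with a median of 453 reads and 11 of 19 read in every library, followed by serine with 9 of 23 and threonine with 2 of 15, while none of the 12 asparagine tRNAs was read in all 16 libraries. In 10 tRNAs, 6 of them threonine tRNAs, no library held more than 3 reads, so no fold change is given for them, and 59 were left for comparison. For 16 of the 69 (23.2%), more than 50% of the summed value came from 1 library, a share like that of all tRNAs (24.5%) and below that of all ncRNAs (34.4%).

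Many of these tRNAs cannot be told apart by their reads. Only 47 distinct sets of values stood behind the 69 names, and 31 tRNAs shared their values with another of them in all 16 libraries. The 9 copies of tRNA-Asn-GTT-3 differed by at most 1 read in any library, the 4 copies of tRNA-Gln-CTG-2 by 0 reads, and the 6 copies of tRNA-Ser-AGA-2 by at most 2. The overlap crossed anticodons in serine, where tRNA-Ser-AGA-1-1 and tRNA-Ser-TGA-2-2 were identical, and tRNA-Ser-AGA-2-2 (1334 reads) and tRNA-Ser-TGA-2-1 (1345 reads) differed by at most 11 reads in a library. The same held for tRNA-Thr-AGT-5-1, tRNA-Thr-CGT-4-1 and tRNA-Thr-TGT-1-1, which shared the same 5 reads. The 7 copies of tRNA-Ser-AGA-1 and AGA-2 and the 2 of TGA-2 were thus measured as a single unit, apart from tRNA-Ser-TGA-1-1 (22 reads) and tRNA-Ser-AGA-3-1 (1 read), and copies of an isodecoder do not count as separate observations.

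Across anticodons, the levels of the most abundant tRNA of each fell into 3 tiers. The highest were tRNA-Gln-CTG-2-1, which reads the CAG codon, with a mean of 68.3 normalized counts over the 16 libraries, tRNA-Ser-TGA-2-1 with 62.6 and tRNA-Ser-AGA-2-2 with 62.3, whose libraries overlap. In the middle lay tRNA-Gln-TTG-1-1, which reads the CAA codon (23.4), tRNA-Thr-TGT-3-1 (22.5), tRNA-Asn-GTT-3-1 (15.1), tRNA-Ser-GCT-3-1 (14.6) and tRNA-Ser-CGA-1-1 (10.6), with spreads between libraries larger than the steps between neighbours. These tiers are of means. tRNA-Thr-TGT-3-1 had medians of 5.52 in PS19 and 5.88 in WT, with 61.9% of its sum in PS19 replicate 4. For tRNA-Ser-GCT-3-1 the medians were 6.38 and 9.14, with 48.2% in PS19 replicate 3. The lowest were tRNA-Thr-AGT-1-2 (3.84), tRNA-Thr-CGT-2-1 (1.33) and tRNA-Ser-GGA-1-1, the sole GGA tRNA of serine, with 5 reads in all (0.340). tRNA-Gln-CTG-2-1 was the steadiest, between 43.1 and 176 normalized counts in every library, whereas tRNA-Ser-GCT-3-1 ran from 0 to 112 and tRNA-Thr-TGT-3-1 from 1.54 to 222.

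The libraries with the highest values were few. PS19 replicate 4 held the highest value for 25 of the 69 tRNAs (36.2%) and PS19 replicate 3 for 10 (14.5%). For comparison, PS19 replicate 4 was highest for 50.8% of the tRNAs of other amino acids and 6.73% of all ncRNAs, and PS19 replicate 3 for 9.62% and 12.7%. The anticodons did not follow the same library: the threonine and glutamine tRNAs were mostly highest in PS19 replicate 4, the GCT and CGA serine tRNAs in PS19 replicate 3, and the 9 AGA and TGA serine tRNAs of the single unit in WT replicate 2.

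**Figure D2:**
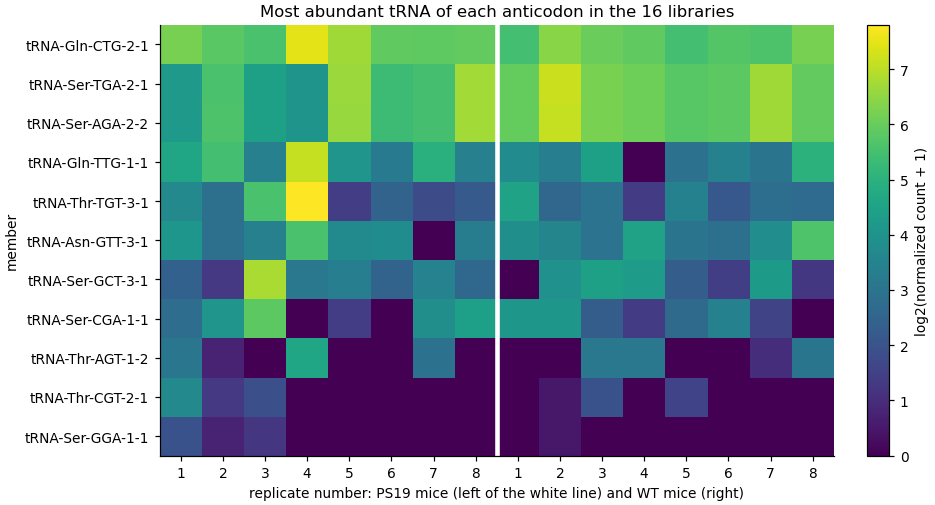
Colour gives log2(normalized count + 1) of the most abundant tRNA of each anticodon (lines of the grid) in each of the 8 PS19 and 8 WT libraries (columns). PS19 replicate 4 is bright for tRNA-Thr-TGT-3-1 and tRNA-Gln-TTG-1-1 and dark for tRNA-Ser-AGA-2-2, and PS19 replicate 3 is bright for tRNA-Ser-GCT-3-1.

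In the comparison of PS19 with WT, fitted with limma on log2(normalized count + 1) over all 15159 ncRNAs, 2 of the 69 polar tRNAs passed a raw p of 0.05, and both, tRNA-Gln-TTG-2-1 and tRNA-Gln-TTG-5-1, were higher in PS19. In the same fit 735 of all ncRNAs passed (4.85%), 412 of them higher (2.72%) and 323 lower (2.13%), so that 2 of 69 lies near the background. After Benjamini-Hochberg adjustment over all ncRNAs none passed (0%), and the smallest adjusted p of a polar tRNA was 0.829. An exact permutation test of the mean log2 value, 8 libraries against 8 and two-sided, gave p values under 0.05 to 10 of the 69, 1 higher and 9 lower, beside 600 of all ncRNAs (3.96%), 309 of them higher (2.04%) and 291 lower (1.92%). The 9 lower ones were 7 AGA and 2 TGA serine tRNAs, that is the single unit described above, and none of the 364 tRNAs of other amino acids was lower by this test. Lower log2 fold changes did occur among the 364, down to -1.08 in leucine and -1.05 in tyrosine tRNAs, beside -0.90 at the lowest in the serine unit. The values of the 2 groups overlapped in each of the 69 polar tRNAs, and in all other ncRNAs too (0 of 15159 free of overlap, 0%).

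The sign of the log2 fold change varied between anticodons. Over the 59 tRNAs with more than 3 reads in some library, the log2 fold change (PS19 over WT) had a median of 0.33, with 36 above and 23 below 0, compared with 0.69 for the 349 tRNAs of other amino acids above the same limit (0.39 and 0.53 with 1 tRNA per identical set). Over all 69, the 10 with no library above 3 reads included, the median was 0.24, beside -0.01 for all ncRNAs. The median of the 69 moved up and down with the setting. It was 0.57 with factors from miRNAs only and 0.39 with DESeq2. It was -0.13 when the libraries were scaled by factors from tRNAs only, where the median of all ncRNAs was also -0.13. It was -0.03 without PS19 replicate 3, 0.06 without PS19 replicate 4 or without WT replicate 1, -0.16 without PS19 replicates 3 and 4, -0.10 within the libraries that share the first letter of the PS19 names, and -0.32 over the 39 tRNAs that edgeR kept with its filter. Most of these turns of sign were not seen with 1 tRNA per identical set. Among the sets above 3 reads the median was 0.39 over 40 sets, 0.05 with tRNA factors, 0.19 without PS19 replicate 3, 0.06 within the shared letter and 0.56 over the 23 sets kept by edgeR, and it stayed below 0 without PS19 replicates 3 and 4 (-0.07). By amino acid, among the tRNAs above 3 reads, the median log2 fold change was 0.41 in glutamine (16 of 18 above 0), 0.35 in threonine (9 of 9 above 0), -0.07 in serine (10 of 21 above 0) and -0.44 in asparagine (1 of 11 above 0). Of the 11 serine tRNAs below 0, 9 were the single AGA and TGA unit, and with 1 tRNA per identical set the serine median was 0.33 over 16 sets, but -0.09 without PS19 replicate 3 (2 of 16 above 0) or with DESeq2, -0.63 within the shared letter, and 0.03 and 0.01 without WT replicates 1 and 8. The asparagine count rests largely on the 9 copies of a single isodecoder. Single libraries or the setting decided several of these medians. Without PS19 replicate 3 the serine median was -0.21 with 2 of 21 above 0, and it lay above 0 in 7 other fits that left out a library (up to 0.15). The threonine median was -0.02 without PS19 replicate 1 and -0.0026 without PS19 replicate 4, with 4 of 9 above 0 in both, -0.22 with the log2 miRNA share in the fit (4 of 9) and -0.16 without PS19 replicates 3 and 4 (2 of 9). The asparagine median was 0.04 without PS19 replicate 7 and also with factors from miRNAs only, with 10 of 11 above 0 in both, and -0.17 without WT replicate 8. The glutamine median was 0.21 without PS19 replicate 4, still with 16 of 18 above 0, and -0.06 with factors from tRNAs only, with 8 of 18 above 0. Apart from both called TTG tRNAs every log2 fold change lay within 2 standard errors of 0. These medians are descriptions, and differences between anticodons were not tested.

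**Figure D3:**
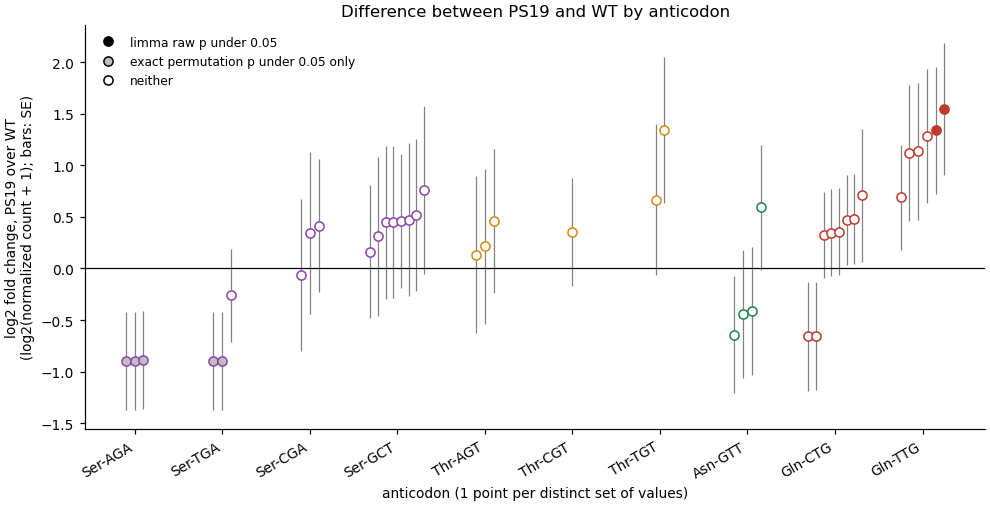
Log2 fold change of PS19 over WT on the log2(normalized count + 1) scale with its standard error, 1 point per distinct set of values with more than 3 reads in some library, grouped by anticodon. The GCT serine and TTG glutamine tRNAs lie above 0 throughout, the AGA serine tRNAs lie together near -0.89, and only 2 TTG glutamine tRNAs are filled as passing limma at a raw p of 0.05 (the values of tRNA-Ser-AGA-1-1 appear again under TGA).

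tRNA-Gln-TTG-2-1, which decodes CAA, had the smallest limma p of the polar tRNAs. It ran from 8.27 to 134 normalized counts in PS19 (median 19.2) and from 0 to 29.8 in WT (median 8.12). All 8 PS19 libraries lay above the WT median, the 2 highest libraries were PS19 replicates 4 and 2, and the lowest was WT replicate 4 with 0 reads, where 3 reads would be 4.63 normalized counts. PS19 mice had a mean of 33.9 ± 42.2 (SD, n = 8) and WT mice of 9.81 ± 8.91 (SD, n = 8), and the log2 fold change was 1.54 with a standard error of 0.64 (limma, raw p = 0.0227, adjusted p = 0.829; exact permutation test, p = 0.0306). It no longer passed without PS19 replicate 4 (log2 fold change 1.18) or without WT replicate 4 (1.12), and passed in each of the other 14 fits that left out a library. It also did not pass when the libraries were scaled by library totals (1.21), tRNA totals (1.19) or factors from tRNAs only (1.06), when the log2 miRNA share was a term of the fit (1.27), or with edgeR without a filter (1.27).

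tRNA-Gln-TTG-5-1 was also higher in PS19, with 6 of 8 PS19 libraries above the WT median. It ran from 5.49 to 76.7 normalized counts in PS19 (median 14.9) and from 0 to 19.9 in WT (median 6.85), with PS19 replicate 4 highest and WT replicate 4 at 0 reads. Its log2 fold change was 1.34 with a standard error of 0.62 (limma, raw p = 0.0393, adjusted p = 0.829; exact permutation test, p = 0.0514), and it held the raw threshold in 9 of 16 fits that left out a library. The same 5 settings ended its call, as did array weights, the replicate block and leaving out PS19 replicates 3 and 4. Its log2 fold change stayed above 0, from 0.95 to 1.57 over the 16 fits and from 0.86 to 2.45 over all 33 alternatives. The most abundant TTG tRNA, tRNA-Gln-TTG-1-1, had a log2 fold change of 1.29 with a standard error of 0.65 and did not pass (limma, raw p = 0.0582; exact permutation test, p = 0.0847). Its log2 fold change was 0.82 without WT replicate 4 and 2.86 within the shared letter, and it passed in 5 of the 16 fits that left out a library. Its reads came close to those of tRNA-Gln-TTG-2-1 in many libraries (60 and 59 in PS19 replicate 2, 36 and 35 in PS19 replicate 4), so the TTG tRNAs are not separate observations either. All 6 TTG tRNAs above 3 reads had a log2 fold change above 0, with a median of 1.21 (0.69 to 1.54). When whole reads were tested instead, DESeq2 called 6 of the 69 at a raw p of 0.05, of which 5 were TTG tRNAs and 1 was tRNA-Thr-TGT-2-1, all higher in PS19, beside 822 of all ncRNAs (5.42%), and edgeR without a filter called 4, also higher, beside 2295 (15.1%). The 4 called by edgeR held neither tRNA-Gln-TTG-2-1 nor tRNA-Gln-TTG-5-1. They were the identical tRNA-Thr-TGT-3-1 and tRNA-Thr-TGT-3-2, and tRNA-Gln-TTG-4-1 and tRNA-Thr-CGT-1-1, with 3 and 4 reads in all.

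None of the CTG tRNAs of glutamine, which read the CAG codon, passed the test. tRNA-Gln-CTG-2-1 ran from 46.6 to 176 normalized counts in PS19 (median 59.2) and from 43.1 to 84.3 in WT (median 55.1). Apart from PS19 replicates 4 and 5, the PS19 libraries lay within the WT range, and the log2 fold change was 0.33 with a standard error of 0.42 (limma, raw p = 0.442; exact permutation test, p = 0.227), moving to 0.14 without PS19 replicate 4, 0.02 within the shared letter and -0.15 with factors from tRNAs only. Of the 12 CTG tRNAs, 10 had a log2 fold change above 0, with values from -0.66 to 0.71.

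A ratio of reads within a library does not depend on its scaling. The reads of tRNA-Gln-TTG-2-1 were 37.7% ± 26.9 (SD, n = 8) of those of tRNA-Gln-CTG-2-1 in PS19, compared with 16.2% ± 11.9 (SD, n = 8) in WT, a pair chosen after the values were seen and therefore not tested. The ratio was 76.6% in PS19 replicate 2, 76.1% in PS19 replicate 4 and 51.5% in PS19 replicate 7, above the highest WT library (41.2%), whereas 3 PS19 libraries lay at 15.9% or below, within the WT values. The higher mean in PS19 thus came from some of the mice.

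Among the serine tRNAs, 7 of the 8 with the AGA anticodon, which inosine lets pair with several serine codons, and 2 of the 3 with TGA were lower in PS19 by the exact permutation test but not by limma. tRNA-Ser-AGA-2-2 ran from 15.3 to 104 normalized counts in PS19 (median 41.9) and from 53.3 to 139 in WT (median 63.6). Of the 8 PS19 libraries 6 lay below the lowest WT library, and the other 2, replicates 5 and 8, lay among the higher WT values. PS19 mice had a mean of 48.2 ± 34.3 (SD, n = 8) and WT mice of 76.3 ± 29.6 (SD, n = 8), and the log2 fold change was -0.89 with a standard error of 0.48 (limma, raw p = 0.0730, adjusted p = 0.829; exact permutation test, p = 0.0460). The 9 tRNAs of this unit had log2 fold changes from -0.90 to -0.89, limma p values from 0.0696 to 0.0730 and exact permutation p values from 0.0432 to 0.0460.

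By limma, these serine tRNAs passed only when certain single libraries were left out, and the permutation test was not repeated without a library. Without PS19 replicate 5 the log2 fold change of tRNA-Ser-AGA-2-2 was -1.07 and without PS19 replicate 8 it was -1.09, both past the raw threshold of limma, and in the other 14 fits that left out a library it did not pass. The 3 lowest PS19 libraries, replicates 4, 1 and 3 at 15.3, 17.6 and 20.6 normalized counts, were also the PS19 libraries with the lowest miRNA shares (0.0645%, 0.0869% and 0.246%), and WT replicate 2 had both the highest level and the highest miRNA share. Adjusted for the log2 miRNA share in the fit, the log2 fold change was -0.48 and did not pass. The sum of the red blood cell miRNAs, by group means mostly miR-486a-5p and miR-486b-5p, was lowest in the same 3 libraries. It was 3532, 9934 and 9676 normalized counts in PS19 replicates 4, 1 and 3 and at least 34078 in the other 13. The part of these miRNAs in the result was not tested.

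Relative to tRNA-Gln-CTG-2-1, the reads of tRNA-Ser-AGA-2-2 were 72.3% ± 51.1 (SD, n = 8) in PS19, compared with 132% ± 39.1 (SD, n = 8) in WT, again with no test. PS19 replicates ran from 8.70% to 174% and WT replicates from 82.4% to 208%. In WT this serine tRNA was read more often than tRNA-Gln-CTG-2-1 in all libraries but replicate 8, and in PS19 only in replicate 8.

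**Figure D4:**
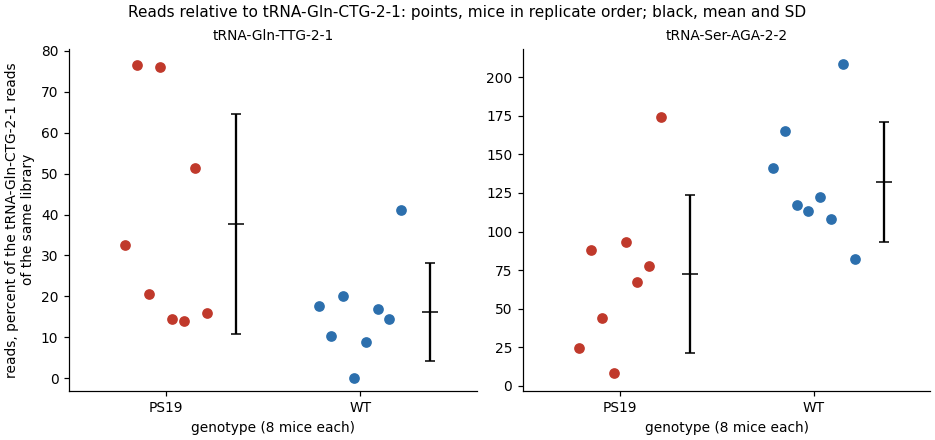
Reads of tRNA-Gln-TTG-2-1 (left) and tRNA-Ser-AGA-2-2 (right) as a percent of the tRNA-Gln-CTG-2-1 reads of the same library, with 8 mice per genotype as points and the mean and SD in black. The PS19 mean lies above WT on the left (37.7% and 16.2%) and below it on the right (72.3% and 132%), and the points of both genotypes overlap in both.

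The remaining serine anticodons gave no call by either test. All 8 GCT tRNAs, which read the AGC and AGU codons, had log2 fold changes above 0 (0.16 to 0.76), but 7 of the 8 lay below 0 without PS19 replicate 3. tRNA-Ser-GCT-3-1 ran from 1.43 to 112 normalized counts in PS19 (median 6.38) and from 0 to 20.5 in WT (median 9.14), so that the PS19 median was the lower of these and the mean of 19.3 ± 37.7 (SD, n = 8) came from PS19 replicate 3. Its log2 fold change of 0.45 with a standard error of 0.73 (limma, raw p = 0.545; exact permutation test, p = 0.603) turned to -0.07 without that library. tRNA-Ser-CGA-1-1, which reads the UCG codon, was also highest in PS19 replicate 3 at 56.2 normalized counts, with a log2 fold change of 0.34 and a standard error of 0.79 (limma, raw p = 0.668; exact permutation test, p = 0.707), and -0.09 without it. For tRNA-Ser-GGA-1-1 the 5 reads lay in 3 PS19 libraries and in WT replicate 2, too few for a fold change.

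Threonine tRNAs were thinly read, and 6 of the 15 had no library above 3 reads. tRNA-Thr-TGT-2-1, which reads ACA, had the smallest limma p of this amino acid and ran from 1.65 to 80.5 normalized counts in PS19 (median 5.04) and from 0 to 7.77 in WT (median 4.91). PS19 replicates 4, 3 and 1 lay above every WT library, whereas the medians of the groups were close, and the log2 fold change was 1.34 with a standard error of 0.71 (limma, raw p = 0.0699; exact permutation test, p = 0.111; DESeq2, raw p = 0.0111). Without PS19 replicates 3 and 4 it was 0.47 (limma, raw p = 0.464), an alternative chosen after the values were seen. tRNA-Thr-TGT-3-1 had 58 of its 202 reads in PS19 replicate 4, 61.9% of its summed normalized counts, and its log2 fold change of 0.67 with a standard error of 0.73 (limma, raw p = 0.372; exact permutation test, p = 0.470) fell to 0.05 without PS19 replicate 4 and turned to -0.40 when PS19 replicates 3 and 4 were left out. tRNA-Thr-AGT-1-2 was read in 8 of the 16 libraries with 39 reads in all (log2 fold change 0.13, standard error 0.76, limma raw p = 0.861; exact permutation test, p = 0.902), and tRNA-Thr-CGT-2-1 in 6 libraries with 21 reads, 8 of them in PS19 replicate 1 (0.35, standard error 0.53, p = 0.507 and 0.641).

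**Figure D5:**
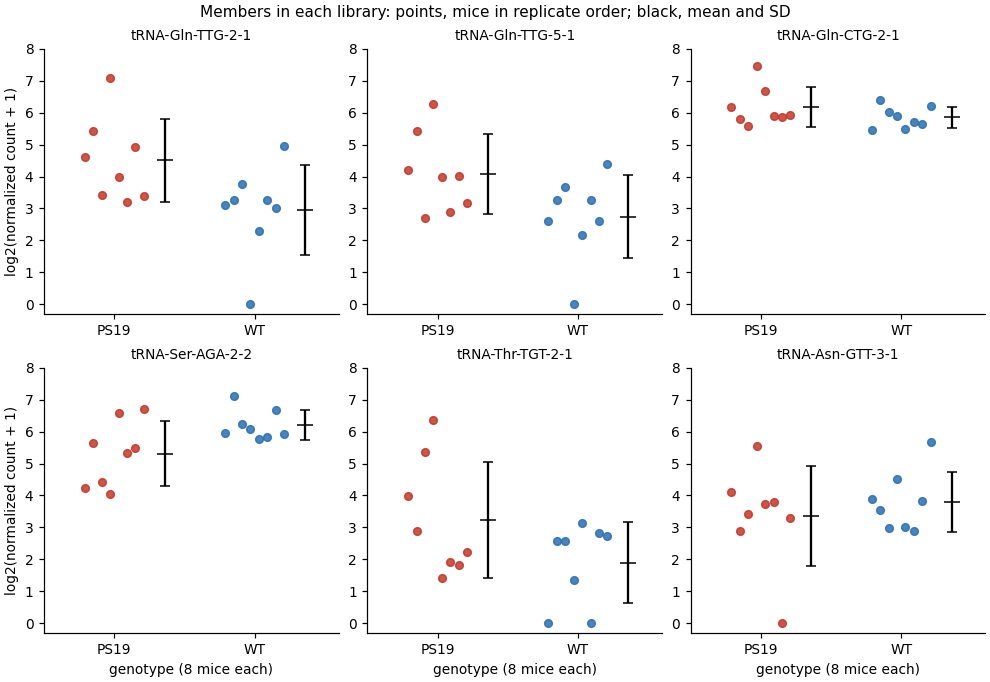
log2(normalized count + 1) of 6 tRNAs in each of the 8 PS19 and 8 WT libraries as points, with the mean and SD in black. WT replicate 4 is at 0 for both TTG glutamine tRNAs, PS19 replicate 4 is highest for 4 of the 6, and 6 of 8 PS19 points for tRNA-Ser-AGA-2-2 lie below all WT points.

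The asparagine tRNAs, all with the GTT anticodon that carries queuosine, gave no call. tRNA-Asn-GTT-3-1, read with 215 reads and standing for 8 identical copies, ran from 0 to 46.0 normalized counts in PS19 (median 10.99) and from 6.37 to 49.7 in WT (median 11.9). The ranges covered each other apart from PS19 replicate 7, which had 0 reads in all copies, and the log2 fold change was -0.44 with a standard error of 0.62 (limma, raw p = 0.485; exact permutation test, p = 0.546), close to 0 (0.04) without that library. tRNA-Asn-GTT-1-1 had the smallest limma p of this amino acid, with 4.78 ± 4.04 normalized counts (SD, n = 8) in PS19, 7.12 ± 3.98 (SD, n = 8) in WT and a log2 fold change of -0.64 with a standard error of 0.57 (limma, raw p = 0.270; exact permutation test, p = 0.241). It was -0.33 without PS19 replicate 7 and -1.35 within the shared letter.

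The tRNAs were also read beside others of the same features, again among those with more than 3 reads in some library. Of the 12 polar tRNAs with an anticodon edited to inosine, which hold 6 distinct sets, none passed limma. The 7 AGA serine tRNAs (part of the unit above) lay below 0 and the 5 AGT threonine tRNAs above it. The median of the 12 was -0.89, or -0.38 over the 6 sets. Of the 54 other tRNAs with an inosine anticodon, limma called 12, all higher in PS19. Their median was 0.67, or 0.62 with 1 tRNA per identical set. Among the class II tRNAs, neither the 21 serine tRNAs nor the 29 leucine and selenocysteine tRNAs held a call by limma. The medians were -0.07 for serine and 0.83 for the others, but 0.33 and 0.19 with 1 tRNA per identical set. The 37 other tRNAs with a queuosine anticodon had a median of 0.73 with no call (0.68 with 1 tRNA per identical set). They differed by amino acid, with medians of 1.31 in histidine, 0.72 in aspartate and -0.25 in tyrosine (8 of 11 below 0). The 11 asparagine tRNAs had a median of -0.44, and -0.42 over their 4 distinct sets. In all, limma called 31 of the 433 tRNAs (7.16%, beside 4.85% of all ncRNAs), all higher in PS19, of which 29 belonged to other amino acids. Copies recur among these too. The 29 included 12 isoleucine and 8 initiator methionine tRNAs, and the 9 initiator methionine tRNAs hold 3 distinct sets.

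All PS19 library names start with the same letter, shared by WT replicates 2 and 4 only, while the other 6 WT names start with 2 other letters. What the letter stands for is not given in the sources used here, and within the shared letter the comparison rests on 8 PS19 and 2 WT libraries. There the log2 fold change was 2.87 for tRNA-Gln-TTG-2-1 and 2.45 for tRNA-Gln-TTG-5-1, both past the raw threshold of limma, and -1.29 for tRNA-Ser-AGA-2-2 and 1.28 for tRNA-Thr-TGT-2-1, which did not pass. The 2 WT libraries had 8.64 and 0 normalized counts of tRNA-Gln-TTG-2-1 and 139 and 66.4 of tRNA-Ser-AGA-2-2.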

How the data were processed

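pEV small RNA of 8 PS19 and 8 WT mice, 1 library each, was used, grouped by the genotype in the labels. The authors aligned the reads with STAR (2.5.3a), assigned them to ncRNAs with COMPSRA and divided the counts by DESeq2 (1.42.1) size factors, and mm10 is the build in the submitters' processing notes. The signal values that the authors deposited are these normalized counts. The deposited table also holds the authors' mean, log2 fold change, standard error, statistic and p-values of their own comparison, which were not used.

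Dividing by the smallest positive value of each library gave whole reads for 100% of values (within 1e-06). PS19 was compared with WT by limma (lmFit and eBayes with trend, two-sided) on log2(normalized count + 1) over all 15159 ncRNAs, at a raw p of 0.05 as in the study and after Benjamini-Hochberg adjustment. This scale understates changes of low tRNAs. Two-sided exact permutation tests, 8 against 8, were run beside it. The detection limit was set at 3 reads, which covers counting error only. Shares counted 1 tRNA per set of identical values. Named are the most abundant tRNA of each anticodon, those with a raw limma p under 0.05 and the smallest p of each amino acid. tRNAs named for shared reads were chosen after their values were seen. The members and lists were chosen with earlier results of these data known. The scripts were tested on simulated data. Alternatives were DESeq2 and edgeR on the recovered reads, other scalings, filters, a pseudocount of 0.1, array weights, a replicate block, libraries left out, the shared letter of library names, identical values and the miRNA share. R 4.3.3 (limma 3.58.1, edgeR 4.0.16, DESeq2 1.42.0) and Python 3.11.15 (numpy 2.4.6, pandas 2.3.3, scipy 1.17.1) were used.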

Additional observations from a re-analysis of the deposited data

Results flagged for a closer look

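In 7 of 42 groups of 8 libraries, a library stood apart from the others by a gap, as a fraction of the group's range, past the critical value of Dixon's test, where chance gives about 1 in 20. For 4 shares of the tRNA reads this was WT replicate 2, the highest, with gaps of 0.836 of the WT range for serine, 0.786 for asparagine, 0.805 for glutamine and 0.829 for all polar tRNAs together. In normalized counts WT replicate 2 did not stand apart for the tRNAs named here except for tRNA-Ser-GGA-1-1, where it held the only WT read and the gap was the whole range (1). WT replicate 4 was the lowest WT library for tRNA-Gln-TTG-1-1 (0.584), with 0 reads, and the same library was at 0 for both TTG tRNAs that passed the test. PS19 replicate 3 was the highest PS19 library for tRNA-Ser-GCT-3-1 (0.607), with 82 of its 124 PS19 reads.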

How the results depend on the processing

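tRNA-Gln-TTG-2-1 stayed above 0 in all 33 alternatives (log2 fold change 1.06 to 2.87) with a raw p under 0.05 in 26, and tRNA-Ser-AGA-2-2 below 0 in all 33 (-1.33 to -0.32) with one in 2. Leaving out shallow libraries removed only WT replicate 2, so that alternative and the fit without WT replicate 2 are the same fit, counted in both places. Of the 69 tRNAs, those called numbered 6 with DESeq2 and 4 with edgeR without a filter, 0 with library totals, tRNA totals or tRNA factors, 8 with miRNA factors, 4 with a pseudocount of 0.1, 1 with array weights, 0 with the miRNA share as a covariate and 1 without PS19 replicates 3 and 4, all higher in PS19. All ncRNAs were called at 15.1% with edgeR and at 2.84% to 5.90% in the other settings named here. Within the shared letter 7 were called, 5 higher and 2 lower, beside 4.62% of all ncRNAs. The 2 lower ones were tRNA-Thr-AGT-7-1 and tRNA-Thr-CGT-3-1, which share the same 2 reads. The exact permutation test called 10, 1 higher and 9 lower, beside 3.96% of all ncRNAs. Leaving out each library in turn gave 0 to 12 calls, 0 to 4 higher and 0 to 9 lower, beside 3.79% to 5.61% of all ncRNAs. Library totals, tRNA totals, miRNA factors and tRNA factors moved the median of all ncRNAs to -0.11, -0.12, 0.18 and -0.13. Same-numbered PS19 and WT libraries are of different mice by design. Of these 8 pairs, 2 correlated above 0.1 in their deviations from the group means, at 0.474 for replicate 2 and 0.103 for replicate 4. The replicate block left 1 call, tRNA-Gln-TTG-2-1. No adjusted p of these tRNAs was under 0.05 in any setting.

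The log2 fold change turned sign for tRNA-Thr-AGT-1-2 with tRNA factors (-0.0144), array weights (-0.21), without shallow libraries (under 50% of the median total, -0.0494), the shared letter (-0.14), the miRNA share (-0.71) and without PS19 replicates 3 and 4 (-0.16). For this tRNA it also turned in 7 fits without a library (-0.32 to 0.40 over all 16), the fit without WT replicate 2 among them. It turned for tRNA-Ser-GCT-3-1 within the shared letter (-0.92), without PS19 replicate 3 (-0.0686, with 0.72 the highest over the 16 fits) and without PS19 replicates 3 and 4 (-0.14), for tRNA-Ser-CGA-1-1 without PS19 replicate 3 (-0.0932, highest 0.74) or WT replicate 8 (-0.0086), for tRNA-Asn-GTT-3-1 with miRNA factors (0.0443) or without PS19 replicate 7 (0.0386, lowest -0.76), for tRNA-Gln-CTG-2-1 with tRNA factors (-0.15), for tRNA-Thr-CGT-2-1 without PS19 replicate 1 (-0.0485, highest 0.56) and for tRNA-Thr-TGT-3-1 without PS19 replicates 3 and 4 (-0.40). None of these passed the test, and the cause was not tested.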

Other observations

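Within the CTG glutamine tRNAs a pair of isodecoders went the other way from the rest, a contrast noticed after the values were seen. tRNA-Gln-CTG-4-1 (397 reads) had 18.4 ± 15.4 normalized counts (SD, n = 8) in PS19, compared with 23.2 ± 8.90 (SD, n = 8) in WT, with a log2 fold change of -0.66 and a standard error of 0.53 (exact permutation test, p = 0.208). tRNA-Gln-CTG-5-1 (453 reads) had 20.1 ± 12.8 (SD, n = 8) and 27.3 ± 10.5 (SD, n = 8), with a log2 fold change of -0.65 and a standard error of 0.53 (exact permutation test, p = 0.196). Neither passed the test, and both were highest in PS19 replicate 5, whereas tRNA-Gln-CTG-1-1, CTG-2, CTG-3 and CTG-6-1 were highest in PS19 replicate 4. Among the 8 GCT serine tRNAs, tRNA-Ser-GCT-5-1 held 61.1% of its summed normalized counts in PS19 replicate 3, tRNA-Ser-GCT-6-1 57.4%, the 4 tRNAs tRNA-Ser-GCT-3-1 and GCT-4-1 to 4-3 between 48.2% and 49.6% and tRNA-Ser-GCT-2-1 20.3%, whereas tRNA-Ser-GCT-1-1 was highest in WT replicate 3 (19.0%).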
